A study of Mus musculus with 10 samples.

Results

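In undifferentiated 3T3-L1 cells, 792 of the 4429 listed regions of acetylated histone H3 lysine 9 (H3K9ac) lay near a peak of the transcription factor C/EBPβ. They were selected on 2 measured lists, as the rows of the deposited 0 h H3K9ac list with a row of the 0 h C/EBPβ list at a gap under 1000 bp, overlap included, and are called pre-bound regions here. The presence of C/EBPβ at 0 h, the heights of those peaks and the acetylation values therefore describe how the regions were picked and are given without a test. The questions with an answer outside the rule are whether the pre-bound peak was listed again 6 h after induction, how high it then ranked, and whether the glucocorticoid receptor (GR) was listed nearby at 6 h.

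The 3T3-L1 line is an established mouse preadipocyte line that can be turned into adipocytes in culture, and its cells are 1 clonal population rather than tissue. Chromatin immunoprecipitation with sequencing (ChIP-seq) gave 1 library for each of the groups used: C/EBPβ at 6 h after induction, GR at 6 h after induction (2 antibodies are named), C/EBPβ in undifferentiated cells (0 h) and H3K9ac in undifferentiated cells (0 h). H3K9ac lists of 24 and 240 h served for comparison, and the hormones of the inducing medium are not named in the labels. The H3K9ac lists leave out transcription start sites and hold only regions where the mark was called higher at that time than at 24 or 240 h, for the 0 h list. Acetylation at 6 h was not among the samples, and the lists carry no expression values, so the identity of the cells was not checked against markers. In such bulk chromatin a site bound in fewer cells and a site bound less often in every cell cannot be told apart.

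C/EBPβ is a basic leucine zipper factor that acts at the start of adipocyte differentiation and helps to switch on the later regulators PPARγ and C/EBPα. GR is a nuclear receptor that binds DNA once a glucocorticoid is present, and synthetic glucocorticoids are a usual part of adipogenic media. H3K9ac is placed by histone acetyltransferases and marks active promoters and enhancers, so a region of the 0 h list is one whose mark was stronger before induction than at a later time. All coordinates are those of the mouse build mm8, as deposited. Genes beside the regions and sequences under the peaks are not given, since no mm8 annotation or genome was used here.

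At 6 h the lists numbered 20746 peaks for C/EBPβ and 4007 for GR, and at 0 h there were 10359 for C/EBPβ. The number of reads behind each list is unknown, every group is 1 library, and no p-value across cultures can be had. Shares carry 95% Wilson intervals and differences of shares 95% Newcombe intervals. Both cover counting error within these lists only, and neighbouring regions or peaks are not independent cultures. A difference is called larger than counting error where its interval leaves out 0.

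The rule took in 17.9% of the 0 h regions. Of the 792 pre-bound regions, 726 had 1 peak of their own, meaning a 0 h C/EBPβ peak within 1000 bp, 64 had 2 and 2 had 3. These were 807 different peaks, since 51 peaks lay near 2 regions and 1 lay near 3, so some regions share a peak and are not separate observations of it. The highest own peak had a median height of 20 reads over the pre-bound regions, with quartiles of 14 and 33 and a highest value of 134. Near the pre-bound regions 31.4% of the peaks belonged to the highest of 4 equal height classes of the 0 h list, against 24.5% of the peaks elsewhere. Pre-bound regions also tended to be wider, with a median width of 1800 bp, against 1400 bp in the other 0 h regions. Average read counts differed little, with a median of 11 against 10, and quartiles of 10 and 12 in both groups. A false discovery rate listed as 0 was given for 62.1% of the pre-bound and 47.9% of the other regions, and for 50.4% of the whole list. Width is part of what the rule searched, and whether the other differences go with it was not tested. The shares of pre-bound regions by chromosome ran from 12.4% of the 105 regions on X to 22.1% of the 447 regions on chromosome 6, which alone held 99 of them.

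The regions with the highest average read count show how unlike each other the pre-bound regions were. The strongest, on chromosome 10 at 38512950 to 38514400, had an average read count of 32 and a C/EBPβ 0 h peak of height 15, and nothing was listed near it at 6 h. Next came a region on chromosome 6 at 88292950 to 88296250, with a read count of 31 and a 0 h peak of height 45 that was also missing from the 6 h list. A region on chromosome 6 at 117290900 to 117293750 had a read count of 23. Its C/EBPβ peak had a height of 43 at 6 h and of 43 at 0 h, and a GR peak of height 12 lay 51.5 bp from it, centre to centre. The region on chromosome 6 at 88349400 to 88355500, with a read count of 23, lost its peak of height 20 from the list, and a different C/EBPβ peak of height 16 was listed near it at 6 h. On chromosome 13 at 91406500 to 91408050 the read count was 22, and the peak had a height of 31 at 6 h and of 67 at 0 h. Heights of different libraries are not on 1 scale, because the read totals are unknown. Of these 5 regions, 3 did not have their own peak listed again, and 2 of the 3 lay within 1 stretch of chromosome 6. The read count of 22 was shared by 4 regions, the other 3 of which had their own peak listed again, so the count was 3 of 8 with a read count of 22 or more, against 190 of all 792 (24.0%). Widths were as mixed. The widest region, on chromosome 6 at 89422900 to 89436400, spanned 13500 bp around 1 peak of height 23 that was listed again, and the second widest, on chromosome 6 at 88387800 to 88400600, spanned 12800 bp around 1 peak of height 12 that was not. The third widest, on chromosome 3 at 154221300 to 154233700, held 2 peaks, the higher of which was listed again.

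Pre-bound C/EBPβ lay mostly inside the acetylated region. The centre of the highest own peak fell within the region in 557 of 792 cases (70.3%) and outside it in 235. Inside, 58.5% of the centres lay in the middle 50% of the region's length. The median distance of an inside centre was 406 bp to the middle of its region and 568 bp to the nearest edge. Outside centres lay a median of 448 bp beyond the edge. The rule searched the region and 1000 bp on either side, so a wide region takes up more of the searched span and the share inside is no measure of preference by itself. Among inside centres the middle 50% of the length held 66.5% in the widest of 4 equal classes, 2750 to 13500 bp, and 44.3% in the narrowest, 700 to 1250 bp. Over all 4429 regions of the 0 h list, C/EBPβ 0 h peak centres had a density of 0.0733 per kb inside the regions, 0.0252 per kb in the 1000 bp on either side and 0.0227 per kb in the next 1000 bp. The density just outside was thus close to that farther out, and the higher density was within the acetylated stretch.

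**Figure D1:**
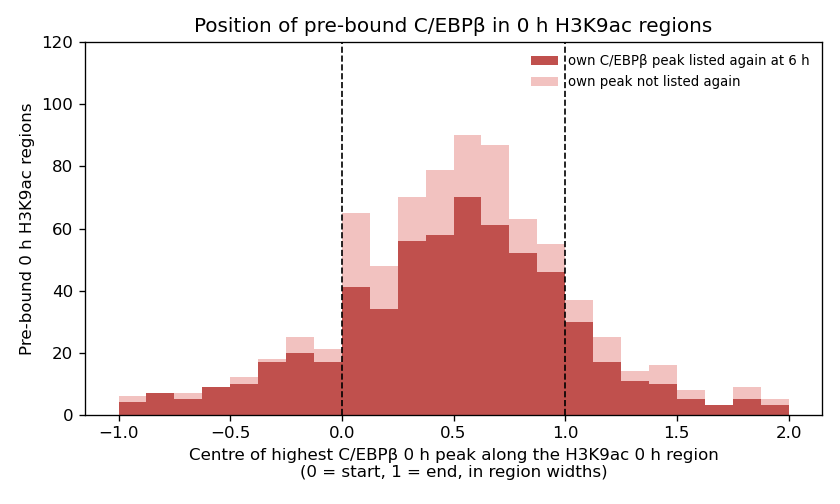
Centre of the highest C/EBPβ 0 h peak of each pre-bound region along the region's length (horizontal axis, in region widths, with dashed lines at the start and end), as the number of regions per bin, with regions whose own peak was listed again at 6 h in dark red and the others in pale red. The 779 regions shown gather between the dashed lines, where 557 centres lay, and 13 regions with centres farther out are beyond the axis.

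The regions on either side of the distance limit had the following values. The pre-bound regions with the largest gaps lay on chromosome 15 at 103171800 to 103176450, chromosome 17 at 14362550 to 14364650 and chromosome 13 at 91440100 to 91442900, with gaps of 978, 976 and 969 bp and peak heights of 12, 28 and 19. The nearest regions left out lay on chromosome 9 at 54603650 to 54605000, chromosome 16 at 45842600 to 45845750 and chromosome 6 at 36797250 to 36799100, with gaps of 1013, 1019 and 1021 bp and peak heights of 21, 32 and 13.

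The first comparison asked whether C/EBPβ at these acetylated sites was listed again after induction. Most of it was. Of the 792 pre-bound regions, 602 (76.0%, 72.9 to 78.9%) had at least 1 own peak that overlapped a 6 h peak, and 577 (72.9%) had every own peak listed again. Counted by peak, 604 of 807 (74.8%, 71.7 to 77.7%) overlapped a 6 h peak, beside 71.3% of the whole 0 h list and 6781 of the 9552 peaks elsewhere (71.0%, 70.1 to 71.9%). The difference of 3.85 points (0.620 to 6.87) was larger than counting error. Against peaks near no H3K9ac region of any time it was 4.41 points (1.17 to 7.44), and for peaks within 10000 bp of a region 4.21 points (1.88 to 6.45). Peaks near the regions were also higher at 0 h. Weighted over 4 classes of equal size by height, the difference was 1.84 points (-1.25 to 4.57), which no longer left out 0, while over 4 classes of fold enrichment it was 3.20 points (0.0520 to 5.97), which did. By direct overlap with the region it was 3.15 points (-0.447 to 6.47), and with the stronger peaks of each list 3.41 points (-1.20 to 7.67).

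Within the pre-bound regions, peak height divided the peaks most widely among the properties compared here. In the highest class, with heights of 27 to 134, 236 of 253 peaks (93.3%) were listed again, against 96 of 180 (53.3%) in the lowest class, with heights of 12 to 14, a difference of 39.9 points (31.9 to 47.6). Elsewhere the same classes had 92.9% and 50.8%. The classes between had 79.1% and 66.7% near the regions, against 78.2% and 62.8% elsewhere. In none of the 4 classes did the difference between peaks near the regions and elsewhere leave counting error. Between the highest and lowest classes of read count or width, no difference exceeded counting error. In the highest of 4 equal classes of average read count 70.7% of regions had an own peak listed again, against 76.8% in the lowest. The difference was -6.06 points (-14.6 to 2.61). The widest and narrowest classes had 74.7% and 79.3%, a difference of -4.55 points (-12.8 to 3.75). Between the ends, classes 3 and 2 had 74.7% and 81.8% by read count, and 71.2% and 78.8% by width. Those classes were not compared with the others. Regions that overlapped a peak and regions with peaks only beside them had 76.6% and 73.8%, a difference of 2.79 points (-4.20 to 10.6). The 66 regions with 2 or 3 own peaks had at least 1 of them listed again in 63 cases (95.5%), against 74.2% of regions with 1, but they also had more chances.

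**Figure D2:**
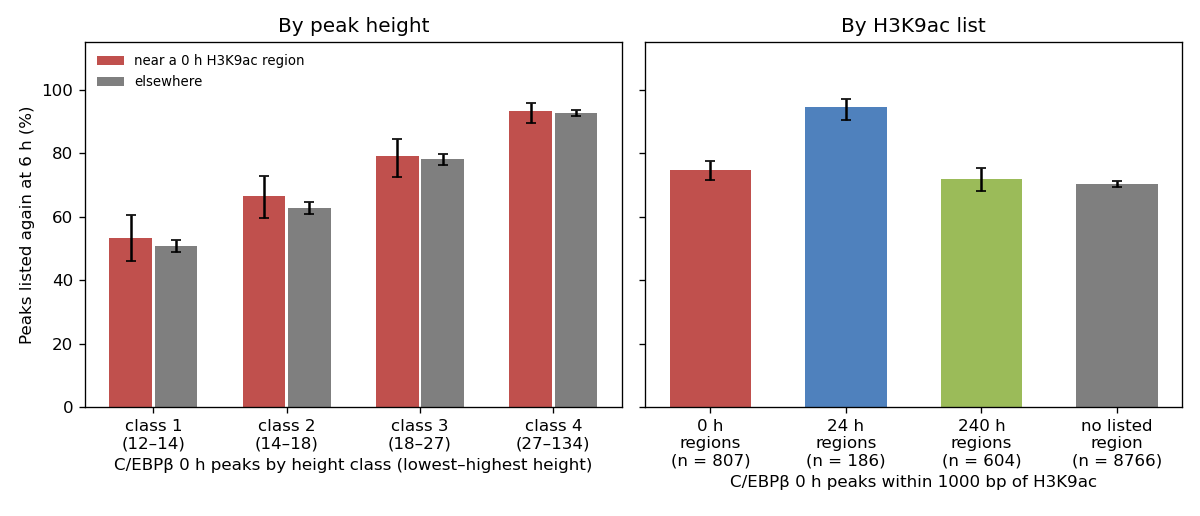
Share of C/EBPβ 0 h peaks listed again at 6 h (vertical axis, percent, with 95% Wilson intervals), on the left by height class for peaks near a 0 h H3K9ac region (red) and elsewhere (grey), and on the right by the H3K9ac list within 1000 bp. Red and grey bars climb together from 53.3% and 50.8% in class 1 to 93.3% and 92.9% in class 4, and the bar of the 24 h regions stands above the other 3.

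The pre-bound regions with the highest C/EBPβ peaks had them listed again. On chromosome 17 at 44170700 to 44174700 the own peak had a height of 86 at 6 h and of 134 at 0 h, the highest of the 0 h list. On chromosome 6 at 145456750 to 145457750 the heights were 63 at 6 h and 114 at 0 h, and on chromosome 17 at 82360700 to 82362150 they were 70 at 6 h and 96 at 0 h. A region on chromosome 4 at 58423000 to 58426300 held the highest peak of the 6 h list, with a height of 112 there and 89 at 0 h. The fifth, on chromosome 19 at 55612750 to 55615000, had 27 at 6 h and 88 at 0 h. All 5 were listed again, and GR lay near 3 of them, with heights of 12, 14 and 22.

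The other 190 pre-bound regions had no own peak in the 6 h list. Their highest own peaks were low, with a median height of 15, against 23 in the 602 regions with a peak listed again, and an upper quartile of 18, against 37. A few were not low. The highest peak missing at 6 h, of height 56 on chromosome 5 at 52904793 to 52905132, served 2 neighbouring regions, at 52904600 to 52909400 with a read count of 19 and at 52902950 to 52904050 with a read count of 12. A peak of height 55 in the region on chromosome 5 at 99454050 to 99456150 and one of height 47 on chromosome 10 at 83909750 to 83911250 were also missing, as was the peak of height 45 in the strongly acetylated region of chromosome 6 described above. None of these 5 regions had a 6 h C/EBPβ or GR peak within 1000 bp. In 172 of the 792 regions no factor peak at all was listed nearby at 6 h. Of the 3637 other 0 h regions, 3186 had no C/EBPβ listed nearby at either time, and GR lay near only 32 of these. The rule largely sets that difference. In the pre-bound regions the average read count had a median of 11 with and without a peak listed again. A peak missing from the list is not shown to be unbound, since the lowest listed height is 12 in every list.

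The second comparison asked how the height rank of the peaks differed between 6 and 0 h. The 604 peaks listed at both times had a median rank percentile of 69.7 in the 6 h list and of 65.4 in the 0 h list, where 100 is the highest peak. The 6 h list is longer, so the percentile says nothing of binding by itself, and only the comparison with peaks elsewhere is informative. A lower percentile at 6 h than at 0 h was found for 255 of the 604 peaks (42.2%, 38.3 to 46.2%), against 2625 of 6781 peaks elsewhere (38.7%, 37.6 to 39.9%) and 39% of all peaks listed at both times. The difference was 3.51 points (-0.541 to 7.65), and 1.38 points (-2.34 to 5.28) weighted over height classes, both within counting error. With only the highest 0 h peak of each region kept, it was 4.78 points (0.574 to 9.07), which left out 0. Peaks elsewhere were not picked by height in this setting and it was not weighted over height classes. It is therefore not a like comparison, and nothing is drawn from it.

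GR divided the peaks near the regions by this measure. Of the 76 that also overlapped a GR peak, 18 (23.7%, 15.5 to 34.4%) ranked lower at 6 h, against 237 of 528 (44.9%, 40.7 to 49.2%) without GR. The difference was -21.2 points (-30.4 to -9.73), and -30.3 points (-39.0 to -18.5) weighted over height classes. Peaks with GR had a median percentile of 91.6 at 6 h and of 81.4 at 0 h, and those without GR 67.0 at 6 h and 62.8 at 0 h. The same division was seen elsewhere, where 14.2% of peaks with GR and 42.8% of those without ranked lower at 6 h. Among peaks with GR, the share near the regions exceeded that elsewhere by 9.47 points (1.0003 to 20.3), but by 5.75 points (-2.37 to 16.9) over height classes. These divisions were made after the lists had been seen.

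**Figure D3:**
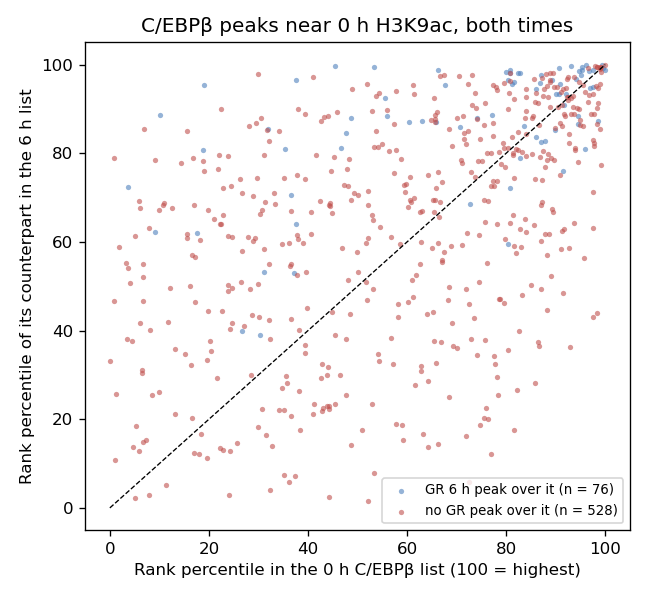
Rank percentile of the 604 C/EBPβ peaks near 0 h H3K9ac regions that were listed at both times, at 0 h (horizontal axis) and for the highest counterpart at 6 h (vertical axis), with 100 the highest peak of a list, blue for the 76 peaks under a GR peak and red for the 528 others. Blue points lie mostly above the dashed line of equal percentile, with 18 of 76 below it, against 237 of 528 red points.

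The third comparison asked how often GR was listed beside the pre-bound regions. A GR peak lay within 1000 bp of 93 of the 792 pre-bound regions (11.7%, 9.68 to 14.2%), against 81 of the 3637 other 0 h regions (2.23%, 1.80 to 2.76%) and 3.93% of the whole list. The difference was 9.52 points (7.39 to 11.98), a ratio of 5.27. It was 9.20 points weighted over width classes and 9.33 points weighted over read count classes. The other regions were of 2 kinds. In the 451 with a C/EBPβ peak at 6 h but none at 0 h, GR lay near 49 (10.9%, 8.32 to 14.1%), and pre-bound regions differed from these by 0.878 points (-2.94 to 4.40). In the 3186 regions with C/EBPβ at neither time, GR lay near 32 (1.004%, 0.712 to 1.41%), and pre-bound regions exceeded these by 10.7 points (8.64 to 13.2). No difference in GR was thus shown between regions with C/EBPβ listed before induction and those with C/EBPβ listed only after it. The sign of that difference varied, with -0.434 points by direct overlap and -1.85 points with the stronger peaks of each list. Both settings also re-chose the regions of each group, so these values are not for the 792 and 451 regions above. With the stronger peaks alone, and the regions re-chosen by them, the excess over all other 0 h regions was 3.62 points (1.956 to 6.04).

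C/EBPβ at 6 h divided the pre-bound regions in turn. With a C/EBPβ 6 h peak within 1000 bp, GR lay near 89 of 616 regions (14.4%, 11.9 to 17.4%), against 4 of 176 (2.27%, 0.887 to 5.70%) without one, a difference of 12.2 points (7.90 to 15.5). The 616 regions exceeded the 451 with C/EBPβ listed only at 6 h, by 3.58 points (-0.520 to 7.52). The 176 exceeded those with C/EBPβ at neither time by 1.27 points (-0.177 to 4.71). Both differences were within counting error. Conversely, an own peak was listed again in 89 of 93 pre-bound regions with GR (95.7%) and in 513 of 699 without (73.4%). That difference of 22.3 points (15.3 to 26.6) was 14.3 points (6.40 to 18.1) over height classes of the highest own peak. The division was not particular to these regions. Counted by peak, 98.7% of those overlapping GR near the regions and 72.3% of the others there were listed again. Elsewhere these shares were 99.2% and 67.7%. Regions with GR had higher own peaks, with a median height of 32, against 19 without GR. GR lay near 19.5% of the regions whose highest own peak was in the highest class and 4.71% of those in the lowest, a difference of 14.8 points (8.68 to 20.4). Peaks elsewhere had a like order of the highest and lowest classes. Counted by peak, GR overlapped 18.6% of the highest and 3.33% of the lowest class near the regions, and 18.0% and 5.89% elsewhere. Classes 3 and 2 had 6.04% and 6.77% near the regions, and 10.3% and 7.30% elsewhere, so these were not ordered alike. In none of the 4 classes did the difference between peaks near the regions and elsewhere leave out 0. GR lay near 14 of the 66 regions with 2 or 3 own peaks (21.2%) and 79 of the 726 with 1 (10.9%), a difference of 10.3 points (1.83 to 21.8). That difference was not weighted over height or width classes. Read count again gave no clear order, with 13.6% in the highest and 8.59% in the lowest class (5.05 points, -1.21 to 11.4).

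**Figure D4:**
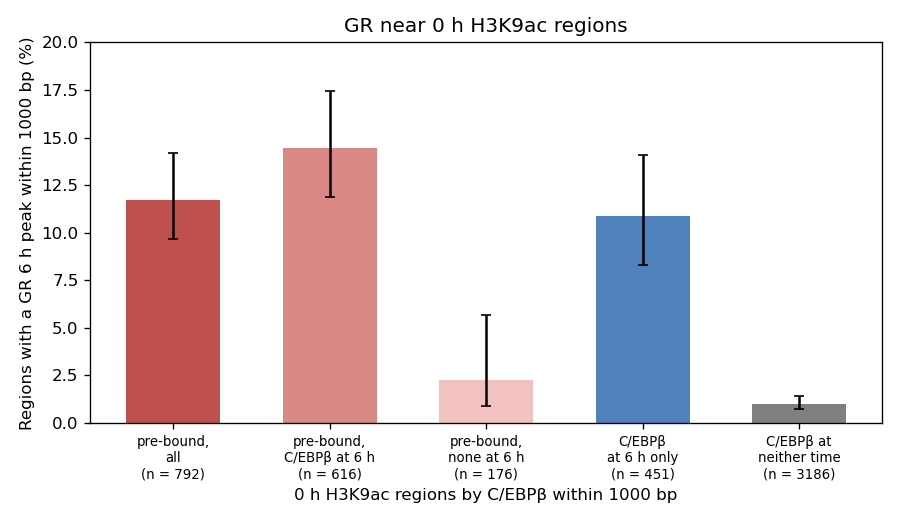
Share of 0 h H3K9ac regions with a GR 6 h peak within 1000 bp (vertical axis, percent, with 95% Wilson intervals), for all pre-bound regions, for those with and without C/EBPβ at 6 h, and for the regions with C/EBPβ at 6 h only and at neither time. The groups with C/EBPβ at 6 h stand at 14.4% and 10.9%, and those without it at 2.27% and 1.004%.

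GR at most of these regions lay on the pre-bound peak itself. In 78 of the 93 regions with GR (83.9%, 75.1 to 89.97%) the GR peak overlapped an own C/EBPβ 0 h peak, and in 85 (91.4%) it overlapped a C/EBPβ 6 h peak. Counted by GR peak, 90.3% of those near the regions overlapped a C/EBPβ 6 h peak, against 66.6% of the whole GR list. Among GR peaks near the other 0 h regions it was 55.1%. The rule requires a C/EBPβ 0 h peak within 1000 bp, so it sets part of these overlaps. Of the 88 regions with a GR centre within 2000 bp of the highest own peak, the nearest GR centre was within 100 bp in 56 (63.6%) and within 200 bp in 73 (83.0%), at a median distance of 52 bp. The nearest C/EBPβ 6 h centre was within 100 bp in 511 of 613 regions (83.4%), at a median of 37.5 bp. Taken over peaks rather than regions, 77 of 807 peaks near the regions overlapped GR (9.54%, 7.70 to 11.8%), against 986 of 9552 elsewhere (10.3%, 9.73 to 10.9%) and 10.3% of the whole 0 h list. The difference was -0.781 points (-2.72 to 1.52), so a C/EBPβ site beside 0 h acetylation was not shown to differ from other pre-bound sites in its overlap with GR.

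**Figure D5:**
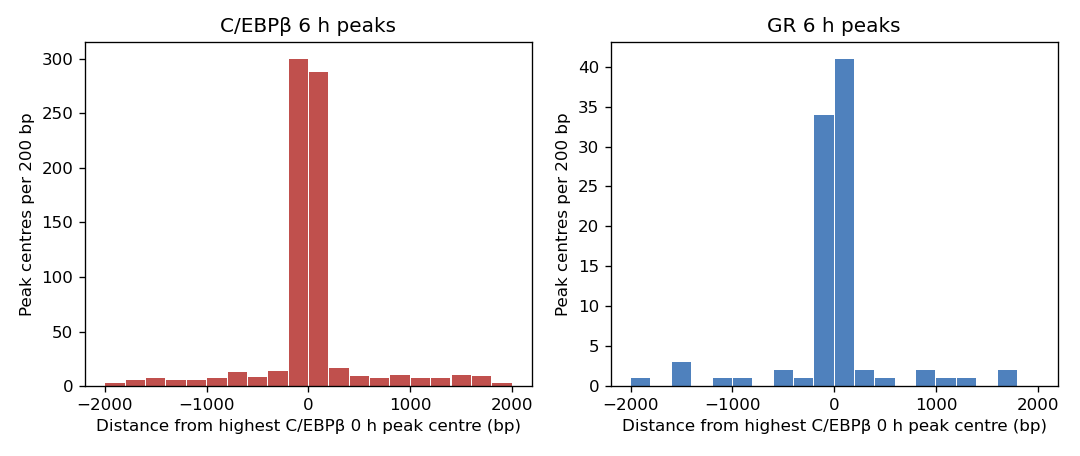
Number of C/EBPβ 6 h peak centres (left) and GR 6 h peak centres (right) per 200 bp, by distance from the centre of the highest C/EBPβ 0 h peak of each pre-bound region, out to 2000 bp on either side. Both lists gather in the 2 middle bins, with 300 and 288 C/EBPβ centres and 34 and 41 GR centres.

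By height, the GR peaks near pre-bound regions were mostly low ones. The 93 GR peaks had a median height of 14, a lower quartile of 12 and a highest value of 49, against a median of 17 and a highest value of 128 in the other 3914. Only 10 of the 93 (10.8%, 5.95 to 18.7%) were in the highest of 4 equal height classes of the GR list, against 991 of 3914 (25.3%, 24.0 to 26.7%), a difference of -14.6 points (-19.6 to -6.53). GR peaks near the other 0 h regions had 18 of 78 there (23.1%), from which those near pre-bound regions differed by -12.3 points (-23.9 to -1.10). Among GR peaks over a C/EBPβ 0 h peak, 8 of 75 near pre-bound regions (10.7%) and 197 of 976 away from them (20.2%) were in the highest class, a difference of -9.52 points (-15.3 to -0.209). Ranked by fold enrichment in place of height, the difference from all other GR peaks was -7.96 points (-14.4 to 1.07), which no longer left out 0. With the stronger peaks of each list it was -16.1 points (-22.9 to 2.77), which did not leave out 0 either. With 10000 bp as the distance, for choosing the regions as well as for GR, it was -6.65 points (-10.9 to -1.75). These comparisons were chosen after the lists had been seen.

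The 5 pre-bound regions with the highest GR peaks had GR heights of 33 to 49. On chromosome 11 at 44789750 to 44792350 GR had a height of 49, 137 bp from a C/EBPβ peak of height 36 at 6 h and 29 at 0 h. On chromosome 2 at 47643950 to 47646100 GR had a height of 47, beside a C/EBPβ peak of height 36 at 6 h and 53 at 0 h. On chromosome 18 at 62869050 to 62870400 a GR peak of height 40 lay 2092 bp from the highest own C/EBPβ peak, past the other end of the region. A GR peak of height 34 lay 2026 bp from it on chromosome 13 at 32553500 to 32557800. In the fifth, at 63345350 to 63346350 on chromosome 17, a GR peak of height 33 lay 146.5 bp from a C/EBPβ peak of height 21 at 6 h and 16 at 0 h. All 5 had their own C/EBPβ peak listed again. Both regions with 3 own peaks also had GR. On chromosome 2 at 61095300 to 61098250 GR had a height of 15 and lay 43 bp from the highest own peak. The other, on chromosome 19 at 27581800 to 27582800, had a GR height of 12 at 49 bp. Of the 64 regions with 2 own peaks, the one with the highest, of height 87 on chromosome 2 at 112172050 to 112173050, had no GR.

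The fourth comparison asked whether further C/EBPβ peaks were listed beside the pre-bound ones at 6 h. A C/EBPβ 6 h peak of any kind lay within 1000 bp of 616 pre-bound regions (77.8%, 74.8 to 80.5%), against 451 of the other 0 h regions (12.4%, 11.4 to 13.5%) and 24.1% of all, a difference that the rule largely sets. New 6 h peaks, which overlapped no 0 h peak, showed no such difference. They lay near 101 pre-bound regions (12.8%, 10.6 to 15.3%), 446 other regions (12.3%, 11.2 to 13.4%) and 12.4% of all, a difference of 0.490 points (-1.92 to 3.20). With 10000 bp as the distance, for choosing the regions as well as for new peaks, the difference was 8.80 points (5.96 to 11.65). The call changed in that setting, but its groups are not the same regions, so the distance alone was not tested. Of the 101, 85 also had an own peak listed again and 16 had none. Regions with an own peak listed again had a new peak more often, at 14.1%, than those without, at 8.42%, a difference of 5.70 points (0.244 to 10.1). The 103 new peaks near pre-bound regions had a median height of 16, against 23 for the 613 6 h peaks there that lay over a 0 h peak.

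The last comparison set the peaks near 0 h acetylation beside C/EBPβ 0 h peaks near the later H3K9ac lists. It was added after the lists had been seen. Of the 186 peaks near 24 h regions, 176 (94.6%, 90.4 to 97.1%) were listed again, and of the 604 peaks near 240 h regions, 434 (71.9%, 68.1 to 75.3%). Without the 3 peaks that lay near both, peaks near 0 h regions differed from those near 24 h regions by -20.2 points (-24.1 to -15.1), and by -20.2 points (-23.8 to -14.5) over height classes. From peaks near 240 h regions they differed by 3.01 points (-1.63 to 7.71). GR overlapped 9.54% of the peaks near 0 h regions, 42.5% of those near 24 h regions and 9.60% of those near 240 h regions. The difference of 0 h from 24 h regions was -33.6 points (-41.1 to -26.3), and that from 240 h regions -0.0652 points (-3.26 to 3.00). The 8766 C/EBPβ 0 h peaks near no listed H3K9ac region had 70.4% listed again and 9.69% with GR.

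Later acetylation was listed near few pre-bound regions. Within 10000 bp, 25 (3.16%) had a 24 h region and 34 (4.29%) a 240 h region, against 2.83% and 6.32% of the other 0 h regions and 2.89% and 5.96% of all. The H3K9ac lists were called against each other, so these counts depend on how the lists were made and were not tested.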

How the data were processed

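Sequencing reads of 36 bp had been aligned to mm8 with ELAND, which tolerated 2 mismatches, and unique reads were kept with each start used once, per the labels' protocols. No caller, threshold or use of input is stated there. The deposited factor lists give a fold enrichment (a ratio over an undescribed background) and a peak height (a read signal) per peak. The deposited H3K9ac lists give an average read count (a read signal) and a false discovery rate (a p-value type) per region, called by the authors against another time. Heights and read counts were not compared across lists, and ranks only as described.

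Intervals were compared in Python 3.11.15 with numpy 2.4.6 and pandas 2.3.3, and figures drawn with matplotlib 3.10.9. Peaks were the same site at an overlap of 1 bp. Peaks were ranked by height, then fold enrichment, then list order, and divided into 4 classes of equal size. Weighted differences average the classes by the number of peaks or regions in the group named first. The code returned planted shares on simulated data.

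The regions, lists, tests and alternatives were chosen with earlier results of these data known. Named regions are the 5 highest by read count, by C/EBPβ 0 h peak, by GR peak and by a C/EBPβ 0 h peak missing at 6 h, the 3 with most peaks, the 3 widest, and 3 on either side of the distance limit. A planned search for motifs was not made, because it needs the mm8 sequence. Input libraries and the list of input bias were not analysed here.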

Additional observations from a re-analysis of the deposited data

How the results depend on the processing

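Every group was 1 library of unknown depth, which limits each statement about peaks missing from a list, and intervals cover counting error alone. No paired analysis was possible because no group has a replicate. The settings by direct overlap, within 10000 bp and with the stronger peaks also re-chose the regions and peaks of each group. The excess of pre-bound over other 0 h regions near GR ranged from 3.62 to 13.75 points over the alternatives run and always left out 0, as did the excess near GR over regions with C/EBPβ at neither time (4.07 to 18.62). The excess near C/EBPβ 6 h peaks (54.76 to 68.13) is largely set by the rule, since most 0 h peaks were listed again, and supports nothing.

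The excess of peaks listed again was 3.15 points by direct overlap with the region, 3.41 with the stronger peaks of each list, and 1.84 and 1.74 over 4 and 10 height classes, each within counting error. It was 3.20 over classes of fold enrichment, 4.21 within 10000 bp and 4.41 against peaks near no H3K9ac region, each of which left out 0. The difference near new 6 h peaks was -0.01125 by direct overlap, -1.165 with the stronger peaks, -0.6325 over width classes and -0.0217 over read count classes, all within counting error, and 8.80 (5.96 to 11.65) within 10000 bp. The cause of these changes was not tested. Overlap of peaks with GR turned to 0.8245 within 10000 bp. Pre-bound regions differed from those with C/EBPβ at 6 h only by -0.434 near GR with direct overlap and by -1.85 with the stronger peaks, within counting error. With the highest peak of each region alone, a setting chosen after seeing the data, 4.78 points (0.574 to 9.07) more peaks near the regions ranked lower at 6 h. Only the peaks near the regions were picked by height there, so the groups are not alike. The lower share of GR peaks in the highest class was -16.05 points (-22.89 to 2.77) with the stronger peaks.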

Other observations

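Several pre-bound regions lay close together. Of the 792, 161 lay within 10000 bp of another pre-bound region and 349 within that distance of any other 0 h region, while 1500 of the 3637 other 0 h regions also had such a neighbour. Joined where less than 50000 bp apart, the pre-bound regions formed 634 stretches, of which 524 held 1 region. The stretches differed in what was listed at 6 h. On chromosome 17, from 14305200 to 14443100, 3 of 7 pre-bound regions had an own C/EBPβ peak listed again and 1 had GR nearby, with a height of 15. On chromosome 6, from 117380000 to 117528550, 6 of 7 had an own peak listed again and 4 had GR, with heights of 13 to 19. Of the 3 stretches of 5 pre-bound regions, that on chromosome 6 from 117242800 to 117326550 had an own peak listed again in all 5 and that on chromosome 5 from 52874300 to 52919350 in 3, each with GR at 1 region. On chromosome 19, from 34471650 to 34517550, the 5 listed 0 h regions were all pre-bound, with highest own peaks of 22 to 81, and 4 had an own peak listed again while none had GR. The stretch on chromosome 6 from 88292950 to 88400600 held 2 of the 5 strongest pre-bound regions. Of its 4 pre-bound regions, with average read counts of 15 to 31, 1 had its own peak listed again, and 1 had GR. Those of the 5 on chromosomes 10 and 13 lay in stretches of 2, in which 0 of 2 regions on chromosome 10 and 2 of 2 on chromosome 13 had an own peak listed again. The stretches were chosen after values had been seen and were not tested.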
